A study of Arabidopsis thaliana with 28 samples.

Results

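Plants overexpressing the transcription factor DEAR1 (AT3G50260) at 22°C were compared with wild type (WT) Arabidopsis thaliana of the accession Col-0. The 2 arrays whose source name gives DEAR1 were set against the 2 WT arrays that the labels name as control for the transgenic plants, out of 28 arrays in all. The seedlings were 12 days old and had been kept on sterile agar in continuous light (near 100 µmol of photons per m2 and s), and RNA came from the entire aerial part. The other arrays were 20 of 10 further lines (CRF2, CRF3, CZF1, ERF5, HSFC1, MYB44, MYB73, RAV1, ZAT10 and ZF, each overexpressing the factor named, at 22°C), 2 of a second WT group at 22°C, and 2 of WT held for 24 h at 4°C in dimmer light (near 30 µmol). Each group had 2 arrays labelled as biological replicates. The sources used here do not say whether the replicates were grown apart, which promoter drives the transgenes, how many independent transformants there were or how many plants went into an array. The series title presents the factors as cold-induced, and its design asks how expression in each line differs from WT.

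DEAR1 belongs to the AP2/ERF family of plant transcription factors. It carries a DNA-binding domain of the DREB type, the type by which CBF/DREB1 activators bind the promoters of cold-regulated (COR) genes, together with an EAR motif, a short motif that recruits corepressors. Published work on Arabidopsis plants overexpressing DEAR1 has linked the factor to salicylic acid-dependent defence, small plant size and reduced freezing tolerance. CBF/DREB1 factors raise COR genes in the cold, and many COR genes encode hydrophilic proteins, among them dehydrins, that protect membranes and proteins during freezing.

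Values are log2 signals, so a difference of 1 is 2-fold, and the lowest value in the table, 2.13, acts as a floor. In whole aerial parts, fewer cells of a type and less RNA per cell cannot be told apart. The annotation used here names no probe set DEAR1, so the transgene could not be checked by name. Probe sets that differed over 2-fold between replicates numbered 923 (5.8%) in the DEAR1 line and 22 (0.138%) in the control. The root mean square SD between replicates was 0.382 in DEAR1, second of the 14 groups, and 0.181 in the control, the lowest. The gap between 3′ and 5′ probe sets, a sign of RNA quality, was 1.37 and 1.29 for GAPDH in the DEAR1 arrays against 0.75 and 0.91 in the control, and 1.56 and 1.78 against 1.27 and 1.2 for ubiquitin. The other lines' arrays covered 0.86 to 2.04 for GAPDH and 1.16 to 1.75 for ubiquitin. For actin the gap was 6.01 and 5.31 in DEAR1 against 5.42 and 5.40 (other lines 4.76 to 5.72), so replicate 1 was the highest. The 25S rRNA probe set read 9.06 and 8.96 in DEAR1 against 10.23 and 10.13 (other lines 8.75 to 11.77). The median log2 signal of the CZF1 arrays was 5.83 and 5.84, near the second WT group at 22°C (5.81 in both). It was 5.42 and 5.43 in the control and also in DEAR1. The part of these differences in the results below was not tested. Of the markers that define the tissue, the annotation names 2 of the stomatal lineage and 3 of roots. The summed root markers read 11.93 and 12.24 in the control and 11.18 and 12.11 in DEAR1, most of it the root-rich beta-glucosidase PYK10, and 11.51 to 13.25 in the other lines. The summed stomatal markers (SPCH and FMA) read 6.22 and 5.90 in the control and 6.58 and 6.05 in DEAR1.

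Few transcripts separated the DEAR1 line from the control beyond the spread of the arrays. Of 15916 probe sets tested, 40 (0.251%) passed an adjusted p of 0.05 in limma, 19 of them higher (0.119%) and 21 lower (0.132%) in DEAR1, and the median difference over all probe sets was 0.00. At an unadjusted p of 0.05, 697 were higher and 793 lower. In all 40, both DEAR1 arrays lay beyond both control arrays, and 39 changed at least 2-fold. A single gene is named for 22 of the 40, and these 10 rises and 12 falls are described below. The count rests on the arrays used to a large degree. It fell to 5 without control replicate 1, to 2 without control replicate 2 and to 26 without DEAR1 replicate 1, and rose to 276 without DEAR1 replicate 2. It was 395 (168 higher, 1.06%, and 227 lower, 1.43%) with the CRF3 arrays, the most variable of the series, left out of the fit. It was 0 with the 4 compared arrays alone, where the smallest adjusted p was 0.337 and 1626 probe sets had an unadjusted p under 0.05.

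**Figure D1:**
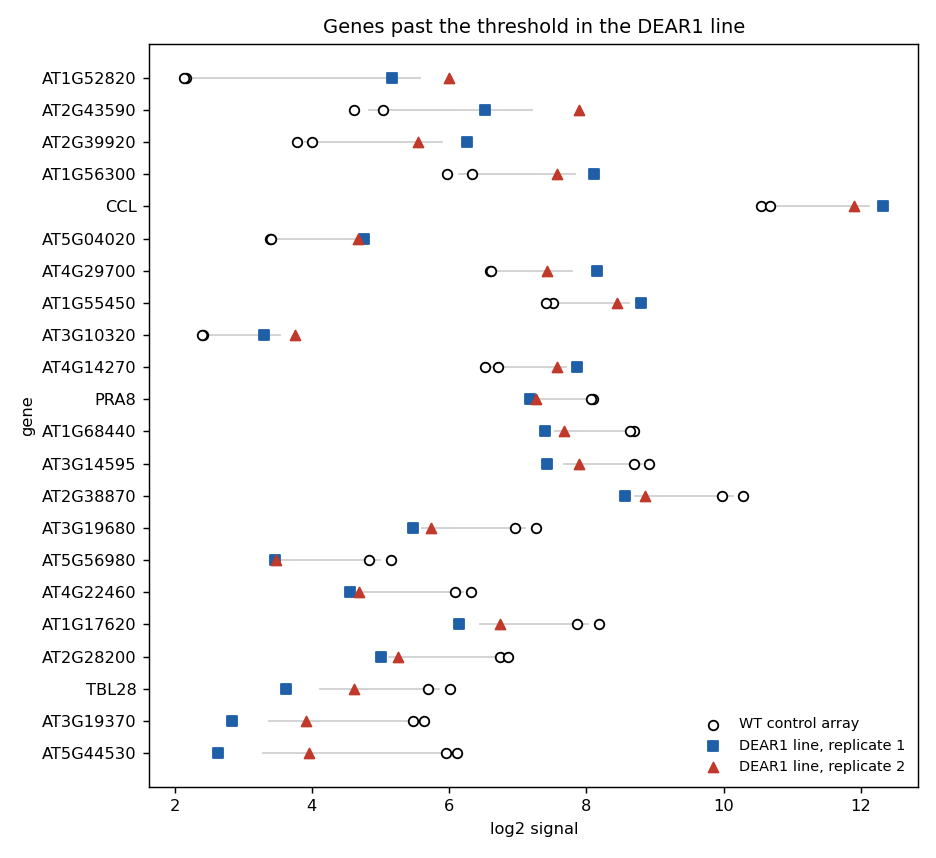
The x axis is the log2 signal of each array and the y axis lists the 22 named genes past the threshold; open circles are the WT control arrays, squares and triangles the DEAR1 arrays, and the grey line joins the group means. In each gene both DEAR1 arrays lie on one side of both control arrays, and AT1G52820 shows the longest line, with control arrays at 2.17 and 2.14.

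Among named genes past the threshold the largest rise was that of AT1G52820, which encodes an oxygenase dependent on 2-oxoglutarate and iron, an enzyme family with members in hormone and secondary metabolism. Its control arrays read 2.17 and 2.14, near the floor, and its DEAR1 arrays 5.17 and 6.0. The groups were far apart, with a difference of 3.43 ± 0.27 (SE) and an adjusted p of 1.33e-06 in limma, although the size of the fold depends on the floor. None of the other 26 arrays exceeded 3.47, and the line stood 3.28 ± 0.20 above the mean of the other 10 lines (adjusted p 1.76e-08). It was the only one of the 22 genes whose call held when each of the 4 arrays was left out in turn (adjusted p 1.57e-06 to 0.000115). A relative, AT1G14120, chosen after its values were seen, read 4.98 and 5.0 in the control and 6.98 and 8.07 in DEAR1. That difference of 2.54 ± 0.56 missed the threshold (adjusted p 0.0654).

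An unnamed probe set had the largest difference of all probe sets tested. Probe set 252214_at read 3.46 in both control arrays and 12.88 and 12.04 in the DEAR1 arrays, a difference of 9.0 ± 0.61 (adjusted p 1.88e-07). The value 3.46 recurred in 8 of the 28 arrays with the table giving no sign of whether it lies above background, so the fold against it, 512, depends on that level. The highest value in the other lines was 6.90, and its call did not depend on any single one of the 4 arrays. The annotation gives no gene for 252214_at, so whether it measures DEAR1 itself could not be told. It is counted among the calls all the same. A second unnamed riser, 248727_at, read 3.57 and 3.81 in the control and 6.32 and 9.28 in DEAR1 (4.11 ± 0.72, adjusted p 0.0229). The deepest falls past the threshold were also in unnamed probe sets. The levels of 260623_at were 8.64 and 9.16 in the control and 3.25 and 4.70 in DEAR1 (−4.92 ± 0.99, adjusted p 0.0428), and those of 254805_at were 8.16 and 8.54 against 5.85 and 4.54 (−3.15 ± 0.45, adjusted p 0.00372). Of these, 254805_at was also below the other lines by 3.46 on the log2 scale (adjusted p 1.35e-05), while 260623_at missed that threshold (−2.27, adjusted p 0.112).

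**Figure D2:**
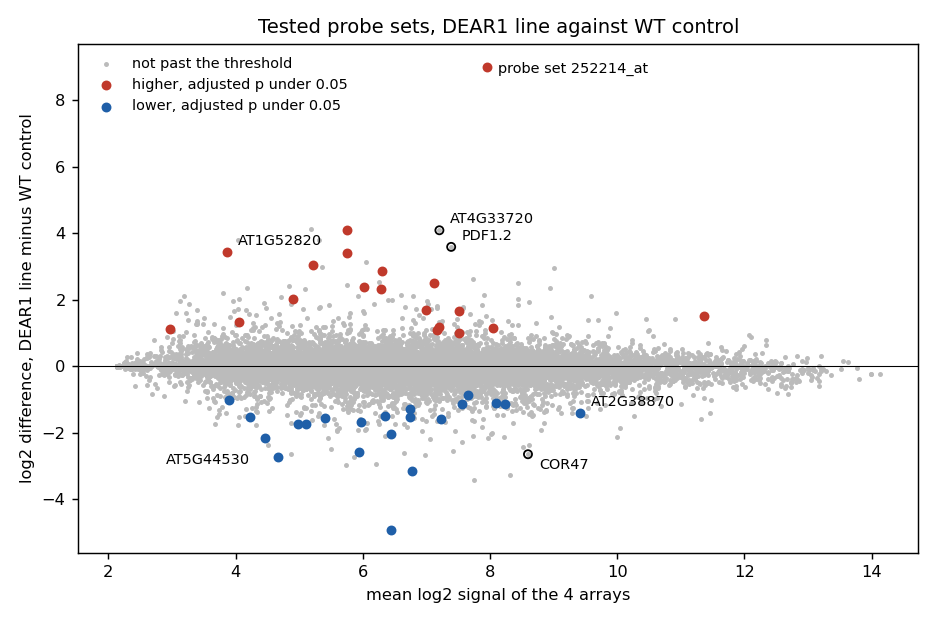
The x axis is the mean log2 signal of the 4 arrays and the y axis the log2 difference between the DEAR1 line and the WT control for the 15916 tested probe sets; red and blue points passed an adjusted p of 0.05 as higher and lower, and open circles mark 3 named genes that did not. Probe set 252214_at stands alone at 9.0, and COR47 (−2.65), PDF1.2 (3.59) and AT4G33720 (4.09) lie far from 0 without passing.

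Among the other rises were genes linked to defence. AT2G43590, a chitinase, read 4.61 and 5.04 in the control and 6.52 and 7.89 in DEAR1, a rise of 2.38 ± 0.39 or 5.21-fold (adjusted p 0.0125). It rose in 5 other lines against the same control arrays, most in CZF1 (4.5), whose arrays had the higher medians given above. For this gene the DEAR1 line did not differ from the mean of the other lines beyond the threshold (0.71, adjusted p 0.231). Against the other WT group at 22°C, whose arrays read 7.59 and 6.88, its difference was −0.03. AT5G04020 encodes a calmodulin-binding protein induced by pathogens, and calmodulin is a calcium sensor. Its arrays read 3.39 and 3.40 in the control and 4.76 and 4.68 in DEAR1, close within each group and apart between them (1.32 ± 0.24, adjusted p 0.0265). Its DEAR1 mean was the highest of the 11 lines, but the difference from the other lines missed the threshold (0.56, adjusted p 0.111). Against the same control arrays it also rose in ZF (1.2, adjusted p 0.00685 in limma) and CZF1 (0.78, adjusted p 0.0194). Both control arrays of AT5G04020 lay under a log2 value of 4, the level used as filter.

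CCL, a gene whose transcript is known for its circadian rhythm, rose from 10.55 and 10.68 to 12.33 and 11.90 (1.5 ± 0.28, adjusted p 0.0277). AT1G56300, a chaperone of the DnaJ family, rose from 5.97 and 6.34 to 8.11 and 7.57 (1.69 ± 0.34, adjusted p 0.0466), and it also rose in the cold, by 2.22 (adjusted p 9.75e-05). Both of these genes, and AT4G14270 and AT2G39920, rose in 4 or 5 other lines against the same control arrays. AT4G14270 changed from 6.52 and 6.72 to 7.86 and 7.57 (1.09 ± 0.19, adjusted p 0.0229). AT2G39920, at the edge of the threshold, changed from 3.79 and 4.00 to 6.26 and 5.55 (2.01 ± 0.41, adjusted p 0.0478), and turned to −0.22 against the other WT group at 22°C. None of these 4 differed from the mean of the other lines beyond the threshold, with differences of 0.09 to 0.65 and adjusted p from 0.117 (CCL) to 0.832 (AT4G14270).

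Another 3 enzyme genes rose and were also higher than the mean of the other 10 lines, although 1 line had a higher mean in each. AT1G55450, a methyltransferase, went from 7.52 and 7.41 to 8.80 and 8.45 (1.16 ± 0.22, adjusted p 0.0265) and stood 1.13 above the mean of the other lines (adjusted p 0.00128), with ERF5 higher at 8.89. AT4G29700, related to alkaline phosphatases, went from 6.59 and 6.61 to 8.16 and 7.42 (1.19 ± 0.22, adjusted p 0.027) and stood 1.10 above that mean (adjusted p 0.00223), with CZF1 higher at 7.86. The CZF1 arrays had the higher medians given above. Against the other WT group at 22°C the difference of AT4G29700 turned to −0.35 (adjusted p 0.227). Both genes fell in the cold, by 1.09 and by 1.5. AT3G10320, a glycosyltransferase, went from 2.41 and 2.40, near the floor, to 3.30 and 3.76 (1.12 ± 0.20, adjusted p 0.0261), and it stood 0.91 above that mean (adjusted p 0.00367). Its HSFC1 mean was higher, at 4.55, 2.15 above the control, while the other 9 lines averaged 2.27 to 2.59. The difference from the other lines was lost for AT4G29700 without DEAR1 replicate 1 (adjusted p 0.1) and for AT3G10320 without DEAR1 replicate 2 (adjusted p 0.0794).

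The falls included a protease, a protease inhibitor and a wall-modifying enzyme. AT5G44530, a subtilisin-like serine protease, had the largest fall among named genes past the threshold. It read 6.11 and 5.96 in the control and 2.63 and 3.96 in DEAR1, a difference of −2.74 ± 0.51 or 6.68-fold lower (adjusted p 0.0265). The line was also 2.61 below the other lines on the log2 scale (−2.61, adjusted p 0.00152), the lowest of the 11, although this was lost without DEAR1 replicate 1 (−1.95, adjusted p 0.0687). AT2G38870, a small protease inhibitor of the potato inhibitor I type, a class known for induction by wounding and pathogens, read 9.97 and 10.29 in the control and 8.56 and 8.86 in DEAR1 (−1.42 ± 0.23, adjusted p 0.0125). The lowest of the 20 arrays of other lines was 9.81, so the DEAR1 arrays lay below all of them. Against the other lines its difference was −1.89 ± 0.17 (adjusted p 6.42e-06), and it passed in all 8 alternatives of that comparison. The same gene rose against the control in 3 other lines, by 1.51 in ZF, 0.83 in ZAT10 and 0.67 in CZF1, whose arrays had the higher medians given above. It fell in the cold by 1.25.

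TBL28, of the family that adds acetyl groups to wall polysaccharides, fell from 6.02 and 5.70 to 3.62 and 4.62 (−1.74 ± 0.35, adjusted p 0.0437). TBL28 also fell in CRF3 against the same control arrays (−1.19, adjusted p 0.0449 in limma). Of the 17 tested members of that family, looked at because TBL28 had passed, 1 fell and 0 rose (0.132% and 0.119% of all probe sets), with a median of −0.22. AT1G17620, of a family of hydroxyproline-rich and late embryogenesis abundant (LEA) proteins, fell from 7.86 and 8.19 to 6.15 and 6.74 (−1.58 ± 0.31, adjusted p 0.0407). It also fell in CZF1 against the same control arrays (−0.98, adjusted p 0.0214 in limma). AT4G22460, a lipid transfer-type protein, fell from 6.08 and 6.32 to 4.56 and 4.69 (−1.57 ± 0.26, adjusted p 0.0125). It fell in 6 other lines against the same control arrays as well, and its difference from the other lines was −0.72 (adjusted p 0.0592). AT2G28200, a zinc finger protein of the C2H2 type, a class of transcription factors, fell from 6.74 and 6.86 to 5.01 and 5.26 (−1.67 ± 0.33, adjusted p 0.0407). Against the same control arrays it fell further in ZAT10 (−2.68, adjusted p 0.00014 in limma) and also fell in CRF3 (−1.19, adjusted p 0.0365). PRA8, a prenylated Rab acceptor of membrane traffic, had the smallest fall, from 8.10 and 8.07 to 7.18 and 7.26 (−0.86 ± 0.16, adjusted p 0.0264). Against the same control arrays PRA8 fell further in ZF (−1.07, adjusted p 0.00115 in limma). It also fell in HSFC1 (−0.76, adjusted p 0.00343) and CRF3 (−0.62, adjusted p 0.0269). Of the 10 tested genes of its family, looked at because PRA8 had passed, 1 fell and 0 rose (0.132% and 0.119% of all probe sets), with a median of 0.00.

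The 5 remaining falls were in genes of little known function. AT3G19370 fell by 2.17 on the log2 scale (adjusted p 0.0478), AT5G56980 by 1.52 (adjusted p 0.0286) and AT3G19680 by 1.5 (adjusted p 0.0103). Against the same control arrays AT3G19680 fell further in MYB44 (−1.95, adjusted p 0.000311 in limma). It also fell in HSFC1 (−1.12, adjusted p 0.00403) and CRF3 (−1.29, adjusted p 0.00809). AT5G56980 fell in MYB44 as well (−1.25, adjusted p 0.0334). AT3G14595 went from 8.70 and 8.92 to 7.43 and 7.90 (−1.15 ± 0.21, adjusted p 0.0265), and AT1G68440 from 8.70 and 8.63 to 7.40 and 7.68 (−1.12 ± 0.20, adjusted p 0.0261). AT1G68440 also fell in ZF (−0.78, adjusted p 0.0267 in limma) and CZF1 (−0.56, adjusted p 0.0408). At the edge of the threshold, AT3G19370 was just inside and AT1G33260 (−1.22, adjusted p 0.0554) just outside.

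The 2 WT groups at 22°C differed by a median of −0.42 (lines' control minus WT of the cold experiment), so differences from the second WT group carry that shift. Against that group 10 of the 22 genes passed in the same direction. In that comparison 5363 of the 15916 probe sets passed, 553 higher and 4810 lower, so a fall past the threshold was common there. The rises were those of AT1G52820 (3.46, adjusted p 1.47e-07) and AT3G10320 (1.25, adjusted p 0.00036). Among the falls were AT5G44530 (−3.58, adjusted p 0.000115), AT3G19370 (−2.80, adjusted p 0.000314), AT2G38870 (−1.32, adjusted p 0.000642), AT3G14595 (−1.11, adjusted p 0.00118), TBL28 (−1.24, adjusted p 0.0129) and PRA8 (−0.79, adjusted p 0.00165).

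The DEAR1 line was also compared with the mean of the other 10 lines, a comparison that uses no WT array but shares the DEAR1 arrays with the first. In it 90 probe sets (0.565%) were higher and 278 (1.75%) lower, or 2.31% in all, with a median difference of −0.07. After quantile normalization 131 were higher and 163 lower, so the share of higher calls moved from 24.5% to 44.6%. With CZF1 left out of the mean of the lines, 97 were higher and 196 lower (33.1% higher). Among the 22 named genes, 4 of the 10 rises and 8 of the 12 falls passed here too. DEAR1 had the lowest mean of the 11 lines for 9 of the 12 falls and the highest for 2 of the 10 rises. The genes were chosen by the values of these same DEAR1 arrays, so such passes and ranks are in part built in. Of the 12 genes that passed both comparisons, AT1G52820, AT1G55450, AT2G38870 and AT3G14595 passed in all 8 alternatives of the second one. The counts were 53 higher and 73 lower without DEAR1 replicate 1, and 290 and 785 without CRF3.

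**Figure D3:**
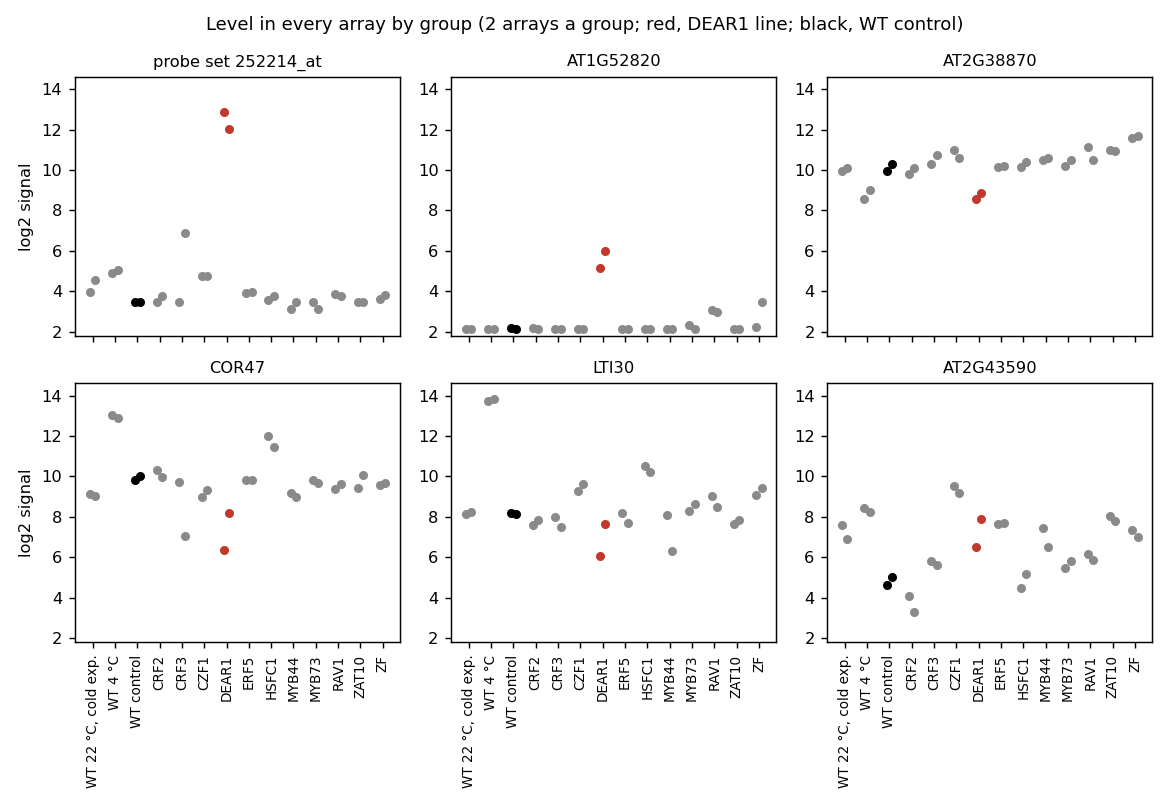
Each panel gives the log2 signal (y axis) of 1 gene or probe set in all 28 arrays, 2 per group (x axis), with the DEAR1 line in red and the WT control in black. The DEAR1 arrays are the highest for 252214_at and AT1G52820 and below every array of the other lines for AT2G38870, while for AT2G43590 both CZF1 arrays (9.5 and 9.16) lie above them; COR47 and LTI30 are highest in WT at 4°C.

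Taken by difference from the other lines, further genes passed that did not pass against the control. They come from the 10 largest differences in each direction, chosen after values were seen; 4 of those 20 genes passed against the control and are described above, which leaves 16. On the high side, AT3G16530, a lectin of the legume type, read 7.43 and 6.95 in the control and 10.87 and 8.53 in DEAR1, 1.90 above the other lines (adjusted p 0.0236). AT1G07050, with a CCT domain as found in flowering and clock proteins, read 4.32 and 4.66 against 8.16 and 7.07 (1.91, adjusted p 0.0479). AT2G41090, a calmodulin-like protein, read 11.70 and 11.49 against 12.59 and 12.48, with both DEAR1 arrays above the highest array of the other lines, 12.25 (1.45, adjusted p 0.0171). On the low side were AT5G64100, a peroxidase, with 8.57 and 9.01 against 6.11 and 7.25 (−1.66, adjusted p 0.0171), and the transcription factor bZIP44, with 6.45 and 6.44 against 3.64 and 5.77 (−1.75, adjusted p 0.021). The DEAR1 arrays differ widely in several of these genes. Of the 20 genes, only 2 passed in all 8 alternatives of this comparison. These were AT1G52820 and AT2G38870, both described above, so none of the 16 did. Of the 16 genes, 13 missed the threshold without DEAR1 replicate 1 and 8 without DEAR1 replicate 2.

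Cold-regulated genes were followed as known targets of the DREB-type factors. Of the 10 that the annotation names, all rose in WT at 4°C, with a median of 4.71, and 0 passed in limma in the DEAR1 line against its control (2 higher and 3 lower at an unadjusted p of 0.05), where 0.251% of all probe sets passed. Their median difference in DEAR1 was −0.39. LEA4-5 (2.13 in all 4 arrays) and AT4G33905 (2.41 to 2.43) lay at or near the floor there and entered the test through the cold arrays. Of the other 8, 6 were below 0 and 2 above, with a median of −0.45. Among those 6, AT4G30830 read 3.35 and 3.59 in the control and 3.12 in both DEAR1 arrays. All these values lie under the filter of 4, so its sign carries little information, and it rose by 4.42 in the cold. The dehydrin gene COR47 lay lowest. It read 9.84 and 10.01 in the control and 6.35 and 8.19 in DEAR1, both below the control, a difference of −2.65 ± 0.57 that just missed the threshold (adjusted p 0.0562). The adjusted p of COR47 was under 0.05 in 7 of 15 alternatives, for instance 0.0412 after quantile normalization and 0.000631 without CRF3, and was 0.456 without DEAR1 replicate 1. Against the other 10 lines COR47 was lower in DEAR1 by −2.42 ± 0.42 (adjusted p 0.00575), the lowest of the 11 lines, but not without DEAR1 replicate 1 (−1.5, adjusted p 0.224). The same gene rose by 3.88 in the cold.

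A second dehydrin gene, LTI30, read 8.18 and 8.14 in the control and 6.06 and 7.63 in DEAR1 (−1.31 ± 0.45, adjusted p 0.28). It was lower than in the other lines (−1.62, adjusted p 0.0171), again not without DEAR1 replicate 1 (−0.83, adjusted p 0.422). AT1G16850, the gene of the list with the largest rise in the cold (7.09), read 4.58 and 4.50 against 2.13 and 3.50 (−1.73 ± 0.53, adjusted p 0.211), with 1 DEAR1 array at the floor. The tandem pair COR15A and COR15B, whose chloroplast proteins protect membranes, gave differences of opposite sign, neither past the threshold. COR15A read 7.26 and 6.81 in the control and 6.42 and 6.70 in DEAR1 (−0.47 ± 0.45, adjusted p 0.871), and COR15B 7.35 and 7.17 against 8.48 and 8.15 (1.05 ± 0.47, adjusted p 0.483). COR27, a cold- and clock-regulated gene, read 6.59 and 6.61 against 7.57 and 7.78 (1.07 ± 0.42, adjusted p 0.377). Against the other WT group at 22°C the sign of COR15B turned (−0.78, adjusted p 0.204), and COR15A (−2.03, adjusted p 0.00311), LTI30 (−1.35, adjusted p 0.0278), AT1G16850 (−1.72, adjusted p 0.0193), COR47 (−1.80, adjusted p 0.0221) and COR27 (1.61, adjusted p 0.00792) passed. AT1G51090, at 4.62 and 4.63 in the lines' control and 3.84 and 4.57 in DEAR1 (−0.42, adjusted p 0.741), was 0.82 above that other group (adjusted p 0.0332). Over all tested probe sets, 553 were higher and 4810 lower against that other group. ZAT10, listed as STZ, a zinc finger repressor induced by cold, read 4.08 and 4.07 against 4.72 and 4.08 (0.33, adjusted p 0.99). A LEA-type gene chosen after its values were seen, AT2G23120, read 9.58 and 9.94 against 6.86 and 8.84 (−1.91 ± 0.44, adjusted p 0.0748). It rose by 2.15 in the cold and was below the other lines (−2.15, adjusted p 0.00225), but not without DEAR1 replicate 1 (adjusted p 0.0995).

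**Figure D4:**
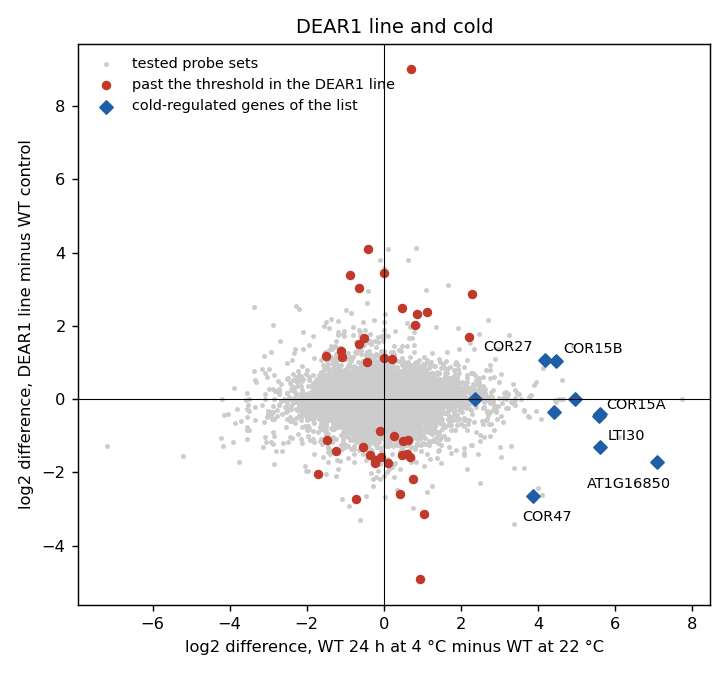
The x axis is the log2 difference between WT at 4°C and WT at 22°C and the y axis that between the DEAR1 line and its WT control, for 15916 probe sets (grey), those past the threshold in DEAR1 (red) and 10 cold-regulated genes (blue). The cold-regulated genes lie far to the right, from 2.36 to 7.09, and on both sides of 0 on the y axis, from −2.65 for COR47 to 1.07 for COR27.

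Over all probe sets the DEAR1 and cold differences, which share no array, had a Pearson r of 0.00 and a Spearman rho of 0.01, across 15916 probe sets, which are not independent replicates. In the cold 2238 probe sets rose (14.1%) and 2091 fell (13.1%), 27.2% in all. Of the 19 DEAR1 rises 3 also rose and 3 fell in the cold, 15.8% each. Of the 21 falls 1 rose (4.76%) and 3 fell (14.3%). A wider set was also counted. Of 187 probe sets (1.17% of those tested) that were at least 2-fold higher with the arrays apart, 12.8% rose and 13.9% fell in the cold. Of 266 (1.67%) that were lower by the same rule, 14.3% rose and 15.4% fell. In this wider set, 2.85% of all probe sets, DEAR1 replicate 1 lay farther from the control than replicate 2 for 214 of the 266 lower and 121 of the 187 higher probe sets. The median difference of the lower set was −1.69 in replicate 1 and −0.92 in replicate 2, and that of the higher set 1.58 and 1.26.

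Defence genes were followed because of the published link of DEAR1 to salicylic acid. Of 5 tested pathogenesis-related and chitinase genes 1 rose (AT2G43590) and 0 fell, where 0.119% of all probe sets rose and 0.132% fell. The median was 2.08 against 0.00 over all probe sets, but 0.20 with the other WT group at 22°C as control and 1.18 with all 4 WT arrays. AT4G33720, of the PR-1 family, read 5.29 and 5.03 in the control and 7.48 and 11.02 in DEAR1 (4.09 ± 1.47, adjusted p 0.314). Both DEAR1 arrays were above the control, but far apart from each other. CHI, which the annotation places at the chitinase gene AT2G43570, read 3.77 and 3.56 against 5.58 and 5.92 (2.08 ± 1.19, adjusted p 0.644). The other members lay below the control. PR-1-LIKE read 6.69 and 6.79 against 3.61 and 4.91 (−2.48 ± 0.73, adjusted p 0.189) and ChiC 6.73 and 6.66 against 5.27 and 6.45 (−0.83, adjusted p 0.606). AT4G16260, a beta-1,3-glucanase looked at after its values were seen, read 7.49 and 8.04 against 9.87 and 10.36 (2.35 ± 0.73, adjusted p 0.22). Calls in genes linked to pathogens above but outside this list went both ways in limma. AT5G04020 rose (1.32, adjusted p 0.0265) and the protease inhibitor AT2G38870 fell (−1.42, adjusted p 0.0125).

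Of the salicylic acid list 5 of 40 genes written were tested, and 0 passed in limma, where 0.251% of all probe sets passed. None passed at an unadjusted p of 0.05 either. All 5 had differences above 0 with a median of 0.51. The largest was that of AT5G03350, a legume-type lectin, with 8.91 and 8.56 in the control and 9.74 and 9.64 in DEAR1 (0.95 ± 0.74, adjusted p 0.803). SAG101, a partner of the defence regulator EDS1, read 5.48 and 4.89 against 5.70 and 5.57 (0.45, adjusted p 0.714). UGT76B1, which glucosylates salicylic acid, read 6.38 and 6.51 against 6.29 and 7.93, so its groups overlapped. Plant defensins, small antimicrobial peptides, had 7 tested members and 0 calls in limma (2 higher at an unadjusted p of 0.05), with a median of 0.27. PDF1.2, a marker of jasmonate and ethylene signalling, read 5.82 and 5.37 in the control and 11.78 and 6.59 in DEAR1 (3.59 ± 1.13, adjusted p 0.227), and PDF1.2b 6.51 and 6.34 against 10.79 and 7.30 (2.62 ± 1.03, adjusted p 0.383). In both genes DEAR1 replicate 1 was far above replicate 2. The 4 tested WRKY transcription factor genes had differences below 0 (median −0.26) and 0 calls, also at an unadjusted p of 0.05.

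Growth, photosynthesis and P450 genes had 0 calls in limma, where 0.251% of all probe sets passed. At that share, lists of this size would hold few calls or none. At an unadjusted p of 0.05 in limma, 697 of all 15916 probe sets were higher and 793 lower. Expansins, which loosen cell walls, had 15 tested members, 13 of them below 0, and a median of −0.28 (−0.56 in DEAR1 replicate 1, −0.17 in replicate 2), with 3 lower at an unadjusted p of 0.05. The lowest were EXPB3, with 9.32 and 9.35 in the control and 6.96 and 8.95 in DEAR1 (−1.38, adjusted p 0.582), and EXPA9, with 5.96 and 6.27 against 4.08 and 5.70 (−1.23, adjusted p 0.361). Of 8 xyloglucan endotransglucosylases, which remodel the wall, 7 were below 0 (median −0.33), and the 7 tubulins had a median of −0.34, each list with 1 lower at an unadjusted p of 0.05. The 7 nuclear photosystem and antenna genes had a median of −0.14, with 0 at an unadjusted p of 0.05. The 66 tested genes of the chloroplast genome had a median of −0.16, which was 0.08 in DEAR1 replicate 1 and −0.43 in replicate 2, with 1 higher and 3 lower at an unadjusted p of 0.05. The 14 cytochrome P450 enzymes were all of the CYP71B subfamily except CYP78A9, many of them at neighbouring loci. Of these, 12 were above 0, with a median of 0.37 and 2 higher at an unadjusted p of 0.05. That median was 0.62 in DEAR1 replicate 1, 0.07 in replicate 2 and 0.08 with no filter. The highest was CYP71B22, with 3.64 and 3.45 in the control and 6.03 and 4.16 in DEAR1 (1.55, adjusted p 0.185).

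Over all 41 lists, 28 had a tested member and 24 at least 3. Of 277 different genes tested in them 1 rose and 2 fell (1.08%, against 0.251% of all probe sets), namely AT2G43590, TBL28 and PRA8, the last 2 from lists added for them. The lists of defensins, trichome birefringence-like genes and Rab acceptors were added after values had been seen. For 13 lists, among them the DREB, CBF and DEAR factors and the ethylene response factors, the annotation names no member. The 36 family 1 glycosyltransferases (median 0.02), 9 ATG8 autophagy genes (0.21), 9 SWEET sugar transporters (0.09), 8 genes of folding in the endoplasmic reticulum (0.02) and 6 heat shock genes (−0.04) lay near the median of all probe sets, with 0 calls in limma. At an unadjusted p of 0.05 this was 1 higher and 3 lower for the glycosyltransferases, 2 higher for SWEET and 0 for the others.

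**Figure D5:**
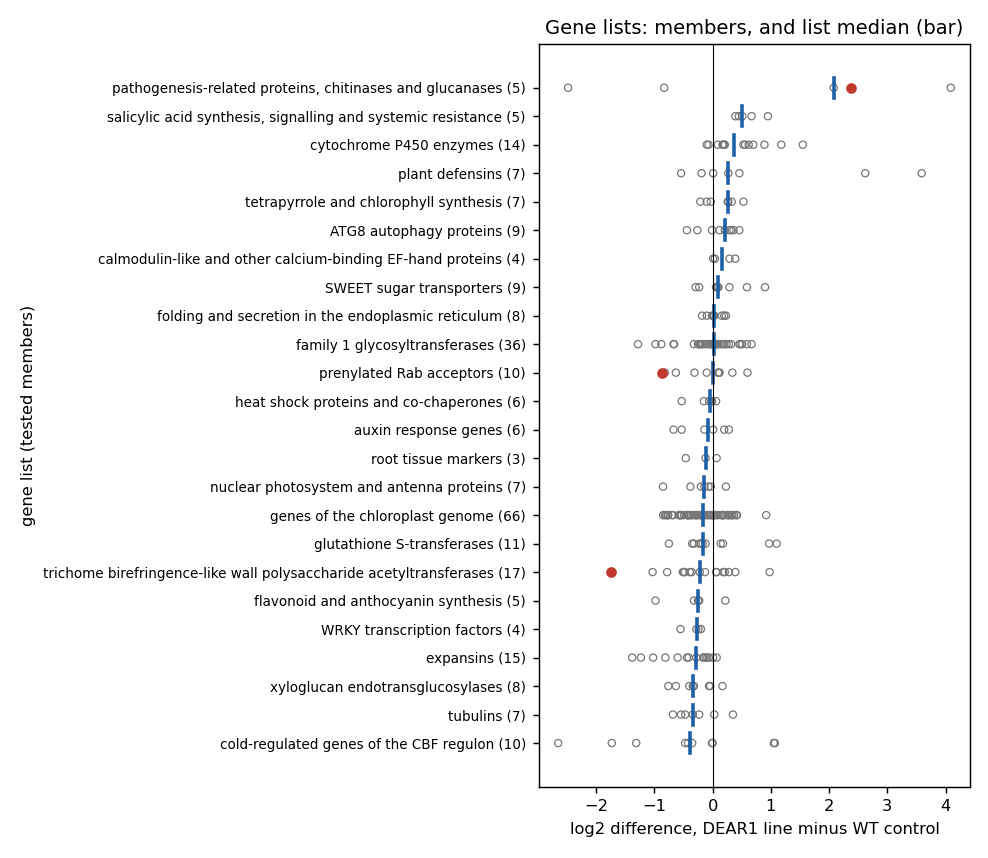
The x axis is the log2 difference between the DEAR1 line and the WT control; each circle is a tested gene of the list on the y axis (number tested in brackets), filled red where it passed an adjusted p of 0.05, and the bar is the list's median. The 24 lists with at least 3 tested members are drawn. Medians run from −0.39 for cold-regulated genes to 2.08 for pathogenesis-related genes and chitinases, and 3 genes are filled.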

How the data were processed

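Per the labels' protocols, total RNA (RNeasy) was amplified and given a biotin label with MessageAmp reagents before hybridisation to single-colour arrays. The values are log2 signals per probe set as deposited by the authors; GCRMA and limma are named per the submitters' processing notes, whose roles and versions are not given. Scanner files were not used here. Signals near the floor carry little information on differences, and precision is limited by 2 arrays per group.

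Of 22810 probe sets, 64 controls were left out. The annotation names 1 gene for 13513, several for 503 and none for 8730, and 13436 of the first matched the RefSeq gene table, whose coordinates were not used. A gene was measured by its probe set of highest mean. The 15916 probe sets with a log2 value over 4 in at least 2 arrays were fitted with limma 3.58.1 in R 4.3.3 (lmFit, eBayes) on group means of all 28 arrays, with 14 residual degrees of freedom, Benjamini-Hochberg adjustment and a threshold of 0.05. On simulated data for DEAR1 against control over these probe sets, 52.5% of changes of 1, 91.5% of 2 and 99.5% of 4 log2 units were recovered, with 8 to 10 false calls. The simulated noise was normal, with an SD per probe set pooled over all groups and equal in each. The real spread was unequal (0.382 in DEAR1 and 0.181 in the control), so these rates need not hold for the real arrays.

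Named genes are the 12 largest rises and falls past the threshold with arrays apart (10 and 12 existed), up to 4 members of each gene list, up to 8 in each direction among those also past it against the other lines, the COR genes, LTI30 and ZAT10, and those marked as chosen after values were seen. Members and lists were chosen with earlier results of these data known. The alternatives tried were other sets of arrays, filters, normalizations, variance priors, controls and call rules, a replicate block and leaving out each array.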

Additional observations from a re-analysis of the deposited data

How the results depend on the processing

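The 40 calls against the control (19 higher, 21 lower) became 395 (168 and 227) without CRF3, 247 (98 and 149) with a spread weighted by group, added after seeing the data, 83 (40 and 43) after quantile normalization and 64 (38 higher, 59.4%) with no filter. With the other WT group as control they were 5363 (553 and 4810, 10.3% higher), with all 4 WT arrays 79 (8 and 71, 10.1%), and with only the 4 compared arrays 0 (0 and 0), the last by a fit on fewer arrays. Leaving out 1 array gave 2 to 276 calls (2 to 94 higher, 0 to 182 lower, 34.1% to 100% higher). Against the other 10 lines the 368 calls became 1075 (290 and 785) without CRF3. With no filter 167 were higher (37.7%), and after quantile normalization 163 were lower (44.6% higher). Without a DEAR1 array there were 126 to 434 calls (53 to 107 higher, 73 to 327 lower, 24.7% to 42.1% higher). Of the 22 called named genes, 10 passed with the other WT group, 9 with all 4 WT arrays, 0 with 4 arrays and 1 to 21 with 1 array left out. With the other WT group as control AT2G39920 (−0.22), AT2G43590 (−0.03) and AT4G29700 (−0.35) changed sign. The 3 called list genes became 77 with the other WT group, 9 without CRF3, 7 with group weights, 0 with 4 arrays and 0 to 12 with 1 array left out. The cause of these differences was not tested.

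The labels do not say whether replicate numbers pair the arrays. Deviations of same-numbered DEAR1 and control arrays correlated at 0.0901 and those of 91 pairs of groups at −0.352 to 0.175. Such correlations cannot exclude a shared batch, since batches may be numbered in a different order in each group. With the replicate block the calls were 29 against the control, 312 against the other lines and 4247 in the cold, and 16 of the 22 named genes passed.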
